A study of Mus musculus with 18 samples.

Results

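Integrins are the cell's receptors for the matrix around it, and focal adhesions are the protein plaques that tie bound integrins to actin cables. The RNA of 44 genes of this system was followed through fat cell formation: 26 integrin subunits, picked by their gene names (18 Itga genes for alpha subunits and 8 Itgb genes for beta subunits), and 18 listed genes, 17 of them for proteins that sit at the inner side of the integrin and Itgbl1 for a secreted relative. All 44 were among the 25209 gene names of the tables. Of these, 31 reached 1 TPM (a level per length of transcript, scaled within each library) in at least 3 of the 18 libraries, 14 integrins and 17 listed genes, and only these 31 were tested.

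The samples were polyadenylated RNA of mouse 3T3-L1 cells, a clonal line of embryonic fibroblasts that an inducing mixture drives to become fat cells, with 3 libraries in each of 6 groups: Control, the expansion stages MCE1 and MCE2, and Day4, Day6 and Day8. The protocol in the labels gave cultures that had been confluent for 2 days 10 µg/mL insulin, 0.25 µM dexamethasone (a glucocorticoid) and 0.5 mM IBMX (which raises cAMP) for 48 h in medium with 10% serum, and then 5 µg/mL insulin with the medium changed every 2 days. Control carries no further label, MCE1 and MCE2 are stages of mitotic clonal expansion, the divisions that precede differentiation, with no hour given, and Day4, Day6 and Day8 are days after the stimuli. The labels do not say whether the replicates were separate cultures, so every p-value here reflects the scatter of these libraries, which may be technical, and the number of reads behind a TPM value is unknown.

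An integrin is a pair of 1 alpha and 1 beta chain. The pair sets what is bound: alpha5 with beta1 binds fibronectin, alpha3, alpha6 and alpha7 with beta1 bind laminin of the basement membrane, and alphav with beta3 or beta5 binds vitronectin and other proteins with an RGD sequence. Inside the cell, talin and kindlin switch the receptor on. The complex of ILK, PINCH and parvin and the kinase FAK with its scaffolds paxillin and p130Cas then assemble on its tail, and vinculin, alpha-actinin, zyxin, VASP and tensin link it to actin. Preadipocytes are flat, spread cells that lose actin cables and become round as they store fat, and fat cells sit in a basement membrane.

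The cells carried the markers of the labelled line. All 8 fibroblast and preadipocyte markers and all 8 fat cell markers reached 1 TPM in at least 3 libraries. The fat cell list summed to 134 to 146 TPM in the Control libraries and to 26976.7 to 29965.0 at Day8. The fibroblast and preadipocyte list summed to 7892.2 to 8334.8 TPM in Control and to 9095.6 to 12181.7 at Day8, so its sum did not fall. Of its 8 markers 3 were higher than Control at Day8, 4 lower and 1 not called, beside 31.7% higher and 39.7% lower of all tested genes. Of 15 leukocyte markers 5 reached that level (Cd14, Cd68, Lyz2, Csf1r and Itgb2), and Ptprc, Adgre1, Tyrobp, Cd3e and Itgam were listed at 0 in all 18 libraries. None of 8 endothelial markers reached it, and 4 of 8 epithelial markers did (Krt18, Cdh1, Krt8 and Krt14).

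Differences are given as log2(TPM + 1), a scale that shrinks those of low genes, and a gene is called higher or lower where the limma fit over all 12695 tested genes gave an adjusted p under 0.05. At MCE1, 22 of the 31 tested genes fell below Control, 3 rose and 6 were not called, where 29.4% of all tested genes were called lower and 22.0% higher (51.4% in either direction). The counts at MCE2 were again 22 lower, 3 higher and 6 not called, beside a background of 39.1% lower and 23.4% higher (62.5%). At Day4 20 were lower and 6 higher, beside 39.3% and 29.7% (69.0%), and at Day6 18 were lower and 9 higher, beside 39.4% and 30.2% (69.7%). By Day8 18 were lower than in Control, 10 higher and 3 not called (Itgb3, Fermt2 and Pxn), beside 39.7% and 31.7% (71.4%). Calls with a log2 difference of at least 1 in size numbered 11 of the 31 at MCE1, 17 at MCE2, 16 at Day4, 18 at Day6 and 18 at Day8, where 13.6%, 20.4%, 27.3%, 29.5% and 32.4% of all tested genes had one. The median log2 difference of the 31 from Control was -0.62 at MCE1, -0.81 at MCE2, -0.56 at Day4, -0.35 at Day6 and -0.53 at Day8, while that of all tested genes was -0.06, -0.17, -0.11, -0.12 and -0.11. Median-ratio scaling between libraries moved the median of all genes up by 0.09, 0.17, 0.13, 0.13 and 0.11 in these comparisons, which share the Control libraries. In bulk RNA, fewer cells of a kind and less RNA per cell cannot be told apart.

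Divided by kind, the 17 tested listed genes lay mostly below Control throughout, and the 14 tested integrins split. Among the listed genes 15 were lower and 1 higher at MCE1, and 13 lower and 2 higher at Day8, with medians of -0.75 and -0.95. Of all tested genes 29.4% were lower and 22.0% higher at MCE1, and 39.7% lower and 31.7% higher at Day8. Their medians were -0.06 and -0.11. Among the integrins 7 were lower and 2 higher at MCE1 (median -0.45). At Day8 8 integrins were higher and 5 lower (median 0.44). But 4 of the 8 (Itga1, Itga7, Itga11 and Itgae) were under 1 TPM in every Control and MCE1 library. They entered the test only through later groups, where they were high. Itgb2, also among the 8, reached 1 TPM in Control replicates 1 and 2 but passed the filter only with later groups, where it was high. Itgb7, among the 5 lower, passed it only through Control, MCE1 and MCE2, where it was high. Of the 10 integrins left under a filter of 5 TPM, 4 were higher and 5 lower, so no balance is read from these counts. Over the 6 groups the F test called all 31 tested genes, beside 87.6% of all tested genes.

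**Figure D1:**
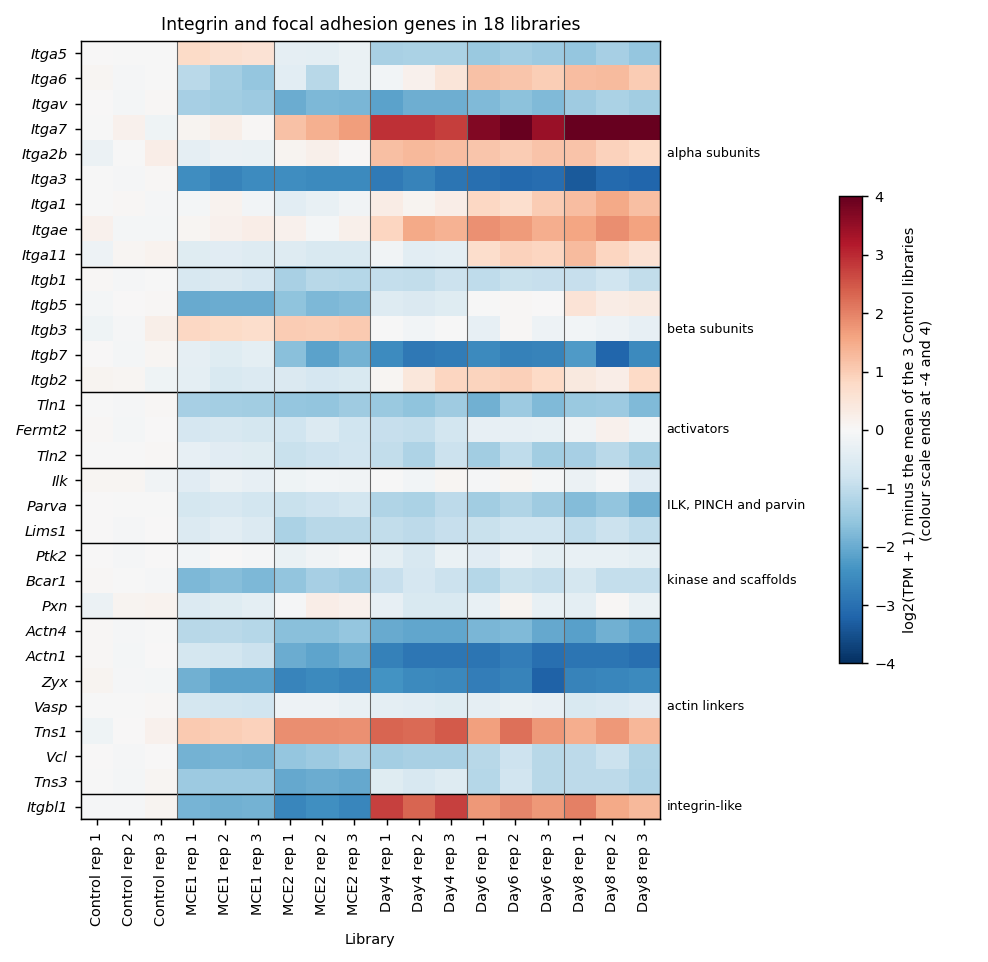
Each row is 1 of the 31 tested genes and each column 1 of the 18 libraries, and the colour gives log2(TPM + 1) minus the mean of the 3 Control libraries, with the scale ending at -4 and 4. Blue (below Control) fills most rows of the talins, ILK complex and actin linkers from MCE1 on, while Itga7, Itga6, Tns1 and Itgbl1 are red (above Control) at Day8.

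The alpha5 subunit of the fibronectin receptor peaked at MCE1 and then dropped below its starting level. Itga5 (chromosome 15, 103174718 to 103197222, mm9) stood at 215, 212 and 213 TPM in Control, at 364, 335 and 316 at MCE1 and at 165, 161 and 179 at MCE2. It read 85.5, 88.7 and 88.2 TPM at Day4, 75.4, 81.9 and 76.9 at Day6, and 72, 83.9 and 72.8 at Day8. The 3 MCE1 libraries were the highest of the 18, and none of the 9 later ones from Day4 on overlapped with any earlier group. Against Control the log2 difference was 0.66 at MCE1 (SE 0.06, adjusted p = 2.77e-07) and -1.48 at Day8 (SE 0.06, adjusted p = 4.96e-12). The call at MCE2 (-0.34) ended under median-ratio scaling (-0.14, adjusted p = 0.0505).

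Alpha6, a laminin receptor chain, took the opposite course. Itga6 (chromosome 2, 71624996 to 71696484) read 70.7, 64.9 and 66.4 TPM in Control, 31.7, 25.8 and 22.4 at MCE1, and 49.7, 30.6 and 56.3 at MCE2. The later libraries stood at 62.6, 76.1 and 94.6 TPM at Day4, 152, 146 and 134 at Day6, and 161, 164 and 136 at Day8. The group mean was lowest at MCE1, where Itga5 was highest, though MCE2 replicate 2 lay within the range of the MCE1 libraries, and the Day6 and Day8 libraries lay above every other one. Itga6 fell by 1.32 log2 units at MCE1 (SE 0.19, adjusted p = 2.39e-05) and was higher than Control by 1.18 at Day8 (SE 0.19, adjusted p = 4.05e-05). The step from MCE1 to MCE2 was 0.72, that from MCE2 to Day4 0.78 and that from Day4 to Day6 0.90, each of them called. At MCE2 it was called below Control (-0.60), a call that ended without MCE2 replicate 2 (-0.34) and under median-ratio scaling (-0.40). The epithelial marker list, whose tissue also has alpha6, summed to 0 to 0.175 TPM in Control, 0 at MCE1, 0.935 to 1.96 at MCE2, 5.10 to 9.02 at Day4, 8.16 to 8.88 at Day6 and 9.85 to 12.8 at Day8, with 4 of the 8 tested. Of these 4, none was called at MCE1, 4 were higher than Control at Day4 and at Day6 and 3 at Day8. The shares of all tested genes called higher were 29.7% at Day4, 30.2% at Day6 and 31.7% at Day8. All 4 were under 1 TPM in Control and MCE1 and passed the filter only through later groups. No test is therefore read from these counts. Krt18 went from 0 in Control to 7.68 ± 0.776 TPM at Day8, Cdh1 from 0.0411 ± 0.0712 to 1.46 ± 0.585 and Krt8 from 0 to 0.916 ± 0.203. Krt14 rose and fell again, with 0 in Control, 1.37 ± 0.528 TPM at MCE2, 1.69 ± 0.483 at Day4, 0.651 ± 0.710 at Day6 and 0.0849 ± 0.147 at Day8. Epcam, which was not tested, went from 0 in Control to 0.878 ± 0.514 at Day8, while Krt5 and Esrp1 were listed at 0 in 17 libraries each. The part of this list in the rise of Itga6 was not tested.

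Alpha7, another laminin receptor chain best known from muscle, had the largest log2 rise of the 31 genes at Day8. Itga7 (chromosome 10, 128370869 to 128395340) stood at 0.466, 0.673 and 0.312 TPM in Control and at 0.586, 0.739 and 0.529 at MCE1, groups that overlap and lie under the 1 TPM of the filter. It then read 2.32, 2.95 and 3.73 TPM at MCE2, 10.2, 10.2 and 8.96 at Day4, 18, 27.2 and 15.2 at Day6, and 47.6, 36.8 and 28.1 at Day8. From MCE1 on each group lay above the one before it with no overlap. The log2 difference from Control was 1.42 at MCE2 and 4.67 at Day8 (SE 0.20), a 77.5-fold ratio of mean TPM. That ratio rests on a Control mean of 0.484 TPM. Itga7 passed the filter only through libraries from MCE2 on, where it was high, so no test is read from these differences. The step from Day6 to Day8 (0.87) was not called in a fit on those 6 libraries alone (adjusted p = 0.0744). The last 8 bases of Itga7 are shared with Mettl7b, whose mean was 0.977 TPM in Control and 24.6 at Day8, and the library kit named in the protocol does not mark strand.

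Alphav and alpha3 fell at the outset. Itgav (chromosome 2, 83564554 to 83647074) was at 125, 116 and 126 TPM in Control and at 47.7, 46.2 and 43.7 at MCE1. Its means then ran 32.7 ± 2.08 at MCE2, 29.6 ± 2.13 at Day4, 36.4 ± 2.14 at Day6 and 47.1 ± 2.56 at Day8 (SD, n = 3), so it partly recovered from its lowest level. The change was -1.39 at MCE1 (SE 0.07, adjusted p = 1.05e-10) and -1.36 at Day8 (SE 0.07, adjusted p = 4.83e-11). Itga3 (chromosome 11, 94905789 to 94938028) dropped from 16.6, 16.5 and 17.6 TPM in Control to 2.20, 1.82 and 2.12 at MCE1 and 0.723, 1.09 and 1.0 at Day8. This was a log2 difference of -2.55 at MCE1 (SE 0.11, adjusted p = 1.2e-11) and of -3.21 at Day8 (SE 0.11, adjusted p = 1.82e-13).

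The other tested alpha chains stayed under 12 TPM in every library. Itga2b, the platelet chain, rose from 4.33 ± 0.946 TPM in Control to 11.5 ± 0.443 at Day4 and 9.25 ± 1.36 at Day8 (log2 difference 0.95 at Day8, SE 0.12). Of the 6 platelet markers, which include Itga2b itself, 3 reached 1 TPM in at least 3 libraries. Their sum was 17.8 to 23.1 TPM in Control, 14.5 to 15.2 at MCE1, 15.6 to 16.0 at MCE2, 30.2 to 34.1 at Day4, 23.9 to 25.9 at Day6 and 17.6 to 28.0 at Day8, with Gp9 at 0 in all 18. Gp1bb was present in every library and had 12.9 ± 2.02 TPM in Control, 20.8 ± 1.56 at Day4 and 11.8 ± 3.56 at Day8. At Day4 2 of the 3 tested markers, Itga2b among them, were higher than Control and 1 was lower, beside 29.7% and 39.3% of all tested genes. The lower marker, Ppbp, had 2.85 ± 0.209 TPM in Control and 2.09 ± 0.309 at MCE1, and was at 0 from MCE2 on. Ppbp thus passed the filter only through Control and MCE1, where it was high, so no test is read from its call. The part of these markers in the rise of Itga2b was not tested. Itga1 and Itga11, chains of collagen receptors, read 3.07 ± 0.480 and 1.94 ± 0.726 TPM at Day8 against 0.630 ± 0.0409 and 0.550 ± 0.195 in Control (log2 differences 1.32 and 0.90, with no test read from them, since only Day6 and Day8 libraries of either gene reached 1 TPM). Inside Itga1 lies Pelo, at 29.3 to 33.6 TPM as group means. Itgae, a chain of lymphocytes, was listed at 0.185, 0 and 0 TPM in Control and at 2.18, 2.82 and 2.23 at Day8 (a difference of 1.68), and reached 1 TPM only in libraries of Day4 to Day8. Haspin, which lies inside Itgae, ran the other way, from 13.3 to 5.07 TPM.

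**Figure D2:**
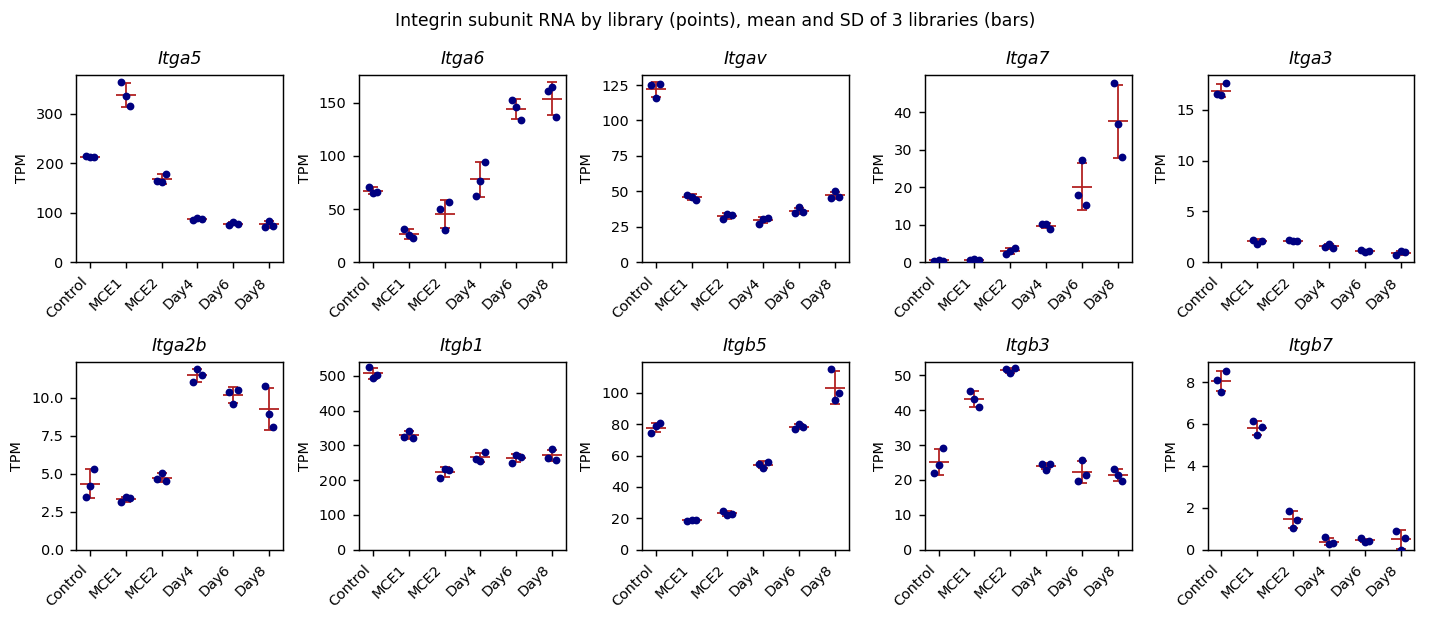
The panels give TPM on linear axes for 10 integrin subunits, with a point for each library and a bar for the mean and SD of the 3 libraries of a group. Itga5 peaks at MCE1 with 316 to 364 TPM while Itga6 is at its lowest there, and Itgb3 lies above and Itgb5 below its Control level at MCE1 and MCE2.

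Beta1, the partner of most alpha chains, was the most abundant integrin RNA in Control and at Day8, and fell during clonal expansion. Itgb1 (chromosome 8, 131209554 to 131257479) stood at 524, 493 and 504 TPM in Control, 325, 342 and 321 at MCE1, and 206, 233 and 228 at MCE2. The Day4 libraries read 259.7, 254 and 281 TPM, those of Day6 250.1, 273 and 267, and those of Day8 265, 289.6 and 258. After a small rise from MCE2 to Day4 (0.25, called) the level stayed between 250.1 and 289.6 TPM from Day6 on, below every Control library. The log2 difference from Control was -0.62 at MCE1 (SE 0.06, adjusted p = 2.1e-07) and -0.90 at Day8 (SE 0.06, adjusted p = 8.45e-10).

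Beta5 and beta3, which share the partner alphav, lay on opposite sides of their Control levels at MCE1 and MCE2. Itgb5 (chromosome 16, 33829751 to 33949424) went from 74.5, 78.6 and 80.5 TPM in Control to 18.4, 19.0 and 18.8 at MCE1 and 24.7, 21.8 and 22.8 at MCE2. It then read 54.6, 51.8 and 55.9 TPM at Day4, 77.1, 80.0 and 77.9 at Day6, and 115, 95.4 and 99.8 at Day8. Thus the MCE1 libraries were the lowest of the course, those of Day6 overlapped with Control and those of Day8 were the highest. The changes against Control were -2.0 at MCE1 (SE 0.07, adjusted p = 9.14e-13), 0.01 at Day6 and 0.40 at Day8 (SE 0.07, adjusted p = 5.52e-05).

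Itgb3 (chromosome 11, 104469314 to 104531785) had 21.9, 24.2 and 29.3 TPM in Control, 45.6, 43.3 and 40.9 at MCE1, and 51.7, 50.6 and 52.1 at MCE2. From Day4 on the 9 libraries lay between 19.6 and 25.7 TPM, within or just below the range of Control. It rose by 0.77 at MCE1 (SE 0.10, adjusted p = 1.24e-05) and by 1.01 at MCE2, and fell by 1.07 from MCE2 to Day4. At Day8 the difference from Control was -0.22 and not called (adjusted p = 0.0716), though it was called without Control replicate 1 (-0.31) or Day8 replicate 1 (-0.28), and at Day6 without Day6 replicate 2 (-0.27).

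The leukocyte chains beta7 and beta2 were minor. Itgb7 had 8.07, 7.54 and 8.52 TPM in Control, 6.12, 5.45 and 5.87 at MCE1, and 1.86, 1.04 and 1.43 at MCE2. From Day4 on Itgb7 read 0 to 0.885 TPM (log2 difference -2.66 at Day8, SE 0.19). It passed the filter only through Control, MCE1 and MCE2 libraries, where it was high, so no test is read from this difference. Itgb2 had 0.923 ± 0.204 TPM in Control, 0.243 ± 0.0393 at MCE2, 2.54 ± 0.171 at Day6 and 1.72 ± 0.562 at Day8. Its log2 difference from Control was 0.88 at Day6 and 0.49 at Day8, both called. Before Day4 only Control replicates 1 and 2 reached 1 TPM, with 1.06 and 1.02. Itgb2 thus passed the filter only with libraries from Day4 on, where it was high, so no test is read from its calls. The Day8 call also ended without Control replicate 3 (0.40) or Day8 replicate 3 (0.32) and under quantile normalization (0.33). It was not called in the fit on those 6 libraries alone (adjusted p = 0.0609). The 15 leukocyte markers, which include Itgb2, summed to 17.4 to 20.8 TPM in Control, 8.32 to 11 at MCE1, 6.78 to 7.89 at MCE2, 8.50 to 11 at Day4, 9.48 to 11.9 at Day6 and 11.7 to 14.1 at Day8, and the general leukocyte marker Ptprc was at 0 throughout. Cd14 had 11.6 ± 1.31 TPM in Control, 5.01 ± 0.774 at Day6 and 6.28 ± 1.13 at Day8, and Cd68 had 2.28 ± 0.664, 1.98 ± 0.750 and 3.13 ± 0.948. Lyz2 and Csf1r stood at 2.37 ± 0.810 and 1.82 ± 0.156 TPM in Control and at 1.05 ± 0.243 and 0.225 ± 0.215 at Day8. The part of these markers in the changes of Itgb2 and Itgb7 was not tested.

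As TPM is a level per length, the chains can be set beside each other. The alpha chains summed to 427 ± 9.16 TPM in Control, 418 ± 30.7 at MCE1, 257 ± 21.8 at MCE2, 221 ± 19.2 at Day4, 298 ± 15.7 at Day6 and 334 ± 29.8 at Day8 (SD, n = 3). Itga5 made up 49.97% ± 0.741 of this sum in Control, 80.9% ± 0.211 at MCE1, 39.7% ± 2.85 at Day4 and 22.9% ± 1.82 at Day8. Itga6 made up 15.8% ± 0.487, 6.33% ± 0.650, 34.9% ± 4.24 and 46.0% ± 0.508 in the same groups, and Itga7 reached 11.2% ± 2.31 at Day8. So alpha5 was the leading alpha RNA from Control to MCE2 and alpha6 at Day6 and Day8, while at Day4 Itga6 was above Itga5 only in replicate 3. The log2 ratio of Itga6 to Itga5 was -1.65 ± 0.05 in Control, -3.63 ± 0.14 at MCE1, -0.19 ± 0.27 at Day4 and 1.0 ± 0.13 at Day8, a rise of 2.65 from Control to Day8 (exact permutation test, 2-sided, p = 0.10 and adjusted p = 0.10 over 8 ratios, n = 3 per group). That is the smallest p this design allows, and all 8 ratios tested reached it. Among them, Lims2 to Lims1 rests on a gene at 0 in Control that did not reach the filter. That ratio therefore largely follows the fall of Lims1.

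The beta chains summed to 620.1 ± 13.4 TPM in Control, 398 ± 11.4 at MCE1, 299 ± 12 at MCE2, 346 ± 17.3 at Day4, 368 ± 16.3 at Day6 and 398 ± 15.2 at Day8. Itgb1 held 81.8% ± 1.19 of the sum in Control and 68.0% ± 2.86 at Day8, where Itgb5 held 26.0% ± 2.49 against 12.6% ± 0.666 in Control. At MCE2 Itgb3 stood at 17.3% ± 0.838 and Itgb5 at 7.75% ± 0.807. The log2 ratio of Itgb5 to Itgb3 was 1.60 ± 0.15 in Control, -1.16 ± 0.09 at MCE1, -1.12 ± 0.08 at MCE2 and 2.22 ± 0.10 at Day8, so beta3 RNA exceeded beta5 RNA at MCE1 and MCE2 and lay below it in the other groups.

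**Figure D3:**
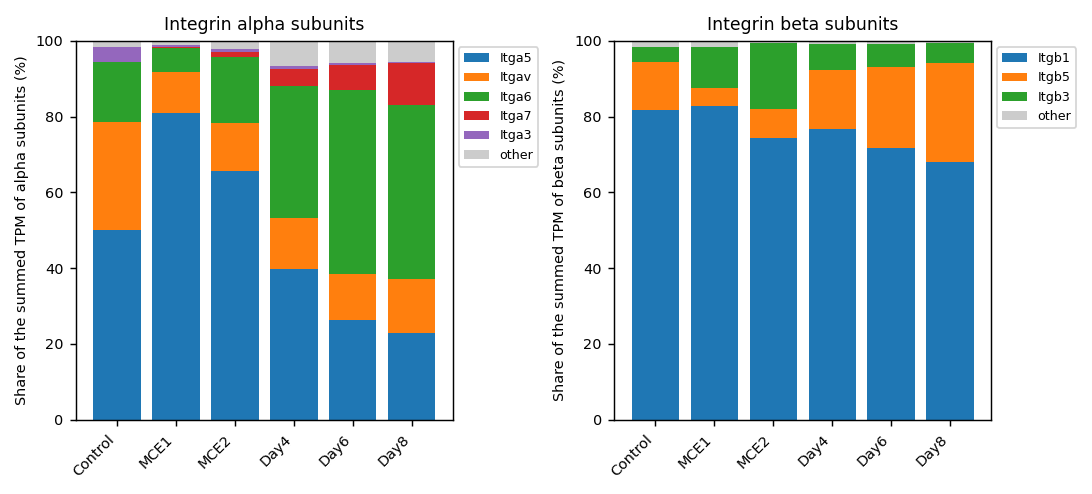
Stacked bars give each chain's mean share, in percent over 3 libraries, of the summed TPM of the alpha chains (left) and the beta chains (right). Itga5 falls from 80.9% at MCE1 to 22.9% at Day8 as Itga6 goes from 6.33% to 46.0%, and Itgb5 reaches 26.0% at Day8.

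Itgbl1 encodes a secreted protein with repeats like those of integrin beta chains, which is not itself a receptor chain. Itgbl1 (chromosome 14, 124059362 to 124373301) stood at 7.15, 7.15 and 8.20 TPM in Control, 1.35, 1.26 and 1.27 at MCE1, and 0.379, 0.566 and 0.384 at MCE2. At Day4 it read 55.1, 42.0 and 55.7 TPM, at Day6 27.0, 31.7 and 27.1, and at Day8 33.5, 23.0 and 19.6. The Day4 libraries were the highest and those of MCE2 the lowest, and no later group overlapped with any earlier one until Day6 and Day8, which overlapped with each other. Its log2 difference was -2.56 at MCE2 and 1.60 at Day8 against Control (SE 0.16 each, adjusted p = 1.49e-07 at Day8). The step from MCE2 to Day4 was 5.16, beside a median of 0.07 over all tested genes.

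Of the activators, talin 1 fell at the outset and stayed low, and kindlin-2 fell and returned. Talin binds the beta tail and pulls the receptor into its active form. Tln1 (chromosome 4, 43544385 to 43575455) had 185, 180.2 and 192 TPM in Control and 73.0, 72 and 69.9 at MCE1. Its 12 later libraries lay between 48.7 and 68.9 TPM, below all those of MCE1. It was lower than Control by -1.36 at MCE1 (SE 0.10, adjusted p = 1.35e-08) and -1.57 at Day8. The less abundant Tln2 went from 18.9 ± 0.556 to 14.0 ± 0.893 at MCE1 and 7.32 ± 1.0 TPM at Day8 (-1.27, SE 0.12).

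Kindlin-2, from Fermt2 (chromosome 14, 46078467 to 46149740), binds the same tails beside talin. It read 101, 92.3 and 96.9 TPM in Control, 60.1, 61.7 and 59.2 at MCE1, 55.6, 65.9 and 54.9 at MCE2, and 50.5, 49.0 and 57.6 at Day4. Its libraries then had 76.1, 75.9 and 78.7 TPM at Day6 and 86.9, 108 and 88.8 at Day8, which overlaps with Control. The change was -0.67 at MCE1 (SE 0.09, adjusted p = 6.6e-06), -0.87 at Day4 and -0.04 at Day8, the last not called (adjusted p = 0.707). From Day4 to Day6 it rose by 0.55.

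ILK, PINCH-1 and alpha-parvin form the complex that joins beta1 tails to actin. The RNA of the 3 did not move alike. Ilk stood at 164 ± 14.6 TPM in Control, 129 ± 9.16 at MCE1, 162 ± 9.71 at Day4 and 138 ± 20.2 at Day8. It was called lower at MCE1 (-0.35, adjusted p = 0.00494) and at Day8 (-0.25, adjusted p = 0.0218). The Day8 and Control libraries overlapped, and that call ended without Control replicate 1 (-0.22), Control replicate 2 (-0.21) or Day8 replicate 3 (-0.15) and under median-ratio scaling (-0.12). Taf10, at 235 TPM in Control and 143 at Day8, overlaps Ilk by 32 bases.

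Parva, for alpha-parvin (chromosome 7, 119571220 to 119735202), had 188, 184 and 183 TPM in Control, 113, 119 and 110.4 at MCE1, 79.6, 77.0 and 89.6 at Day4, and 54.5, 61.5 and 48.3 at Day8. The Day8 libraries were the lowest of the 18. The gene Parvaos, which overlaps it, was at 0.366 to 1.20 TPM as group means. Parva fell by 0.69 at MCE1 (SE 0.08, adjusted p = 2.82e-06) and by 1.75 at Day8 (SE 0.08, adjusted p = 1.41e-11). Lims1, for PINCH-1, went from 82.7 ± 2.62 to 58.2 ± 3.26 at MCE1 and to 36.4 ± 2.20 at MCE2, and was at 42.3 ± 2.78 TPM at Day8 (-0.95, SE 0.06). Its paralog Lims2 was listed at 0 in 16 libraries and reached 1 TPM only in Day4 replicate 2, with 1.29 TPM.

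The signalling proteins of the plaque diverged too. Ptk2 encodes FAK, the kinase that starts adhesion signalling, and its RNA moved little: 58.0, 54.8 and 58.2 TPM in Control, 52.6, 57.8 and 55.3 at MCE1, and 46.5, 46.7 and 43.3 at Day8. It was not called at MCE1 (-0.05, adjusted p = 0.712) and was lower at Day4 (-0.44) and Day8 (-0.32, SE 0.09, adjusted p = 0.00434). Bcar1, for the FAK and Src substrate p130Cas (chromosome 8, 114234375 to 114267749), stood at 89.4, 85.0 and 83.2 TPM in Control, 23.8, 25.7 and 24.2 at MCE1, and 51.8, 43.5 and 43.8 at Day8. It fell by 1.77 at MCE1 (SE 0.09, adjusted p = 1.58e-10) and was still lower by -0.88 at Day8. Pxn, for the scaffold paxillin, had 46.6 ± 6.54 TPM in Control, 33.2 ± 2.06 at MCE1, 50.9 ± 5.95 at MCE2 and 40.5 ± 6.83 at Day8. Its change at MCE1 was -0.47 (adjusted p = 0.0115), which was not called without Control replicate 3 (-0.40), and the difference at Day8 was not called (-0.20, adjusted p = 0.22).

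Among the actin linkers, zyxin and vinculin had the lowest log2 differences at MCE1. Zyxin gathers where cables pull, and vinculin reinforces the bond of talin to actin. Zyx (chromosome 6, 42299827 to 42308561) went from 493, 443 and 429 TPM in Control to 118, 103 and 102 at MCE1, and its 12 later libraries lay between 47.5 and 85.9 TPM. This was -2.07 at MCE1 (SE 0.11, adjusted p = 2.91e-10) and -2.60 at Day8 (SE 0.11, adjusted p = 5.68e-12). Vcl (chromosome 14, 21748620 to 21852898) had 190.5, 182 and 191 TPM in Control, 49.4, 51.3 and 49.99 at MCE1, 64.3, 68.1 and 76.0 at MCE2, and 71.9, 75.8 and 75.6 at Day4. It read 85.7, 105 and 87.0 TPM at Day6 and 91.1, 104 and 81.7 at Day8, still below every Control library. Its log2 difference was -1.88 at MCE1 (SE 0.09, adjusted p = 3.9e-11), and -1.02 at Day8 (SE 0.09, adjusted p = 2.55e-08). So zyxin RNA went on down after MCE1 while vinculin RNA came part of the way back, by 0.46 from MCE1 to MCE2.

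The alpha-actinins, which crosslink actin, fell in steps. Actn1 (chromosome 12, 81268529 to 81361358) read 407, 378 and 402 TPM in Control, 242, 235 and 216 at MCE1, 99.1, 91.7 and 101 at MCE2, and 60.4, 52.2 and 52.3 at Day4. Day6 and Day8 libraries lay between 47.7 and 57.5 TPM, and overlapped with those of Day4. The log2 difference from Control was -0.77 at MCE1 (SE 0.07, adjusted p = 2.55e-07) and -2.96 at Day8 (SE 0.07, adjusted p = 6.7e-15). Actn4 went from 536 ± 17 TPM in Control to 248 ± 4.21 at MCE1, 173 ± 6.96 at MCE2 and 128 ± 12.4 at Day8 (-1.11 at MCE1 and -2.06 at Day8, SE 0.07 each). The log2 ratio of Actn4 to Actn1 was 0.44 ± 0.03 in Control, 0.10 ± 0.07 at MCE1 and 1.34 ± 0.12 at Day8. Vasp, which extends actin filaments, had 147 ± 3.22 TPM in Control, 87.1 ± 3.08 at MCE1, 125 ± 4.86 at MCE2 and 101 ± 5.51 at Day8 (-0.75 at MCE1 and -0.53 at Day8, SE 0.05 each). Its small difference at MCE2 (-0.23) was not called under median-ratio scaling (-0.03).

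Tensins tie the beta tail to actin, and Tns1 and Tns3, the listed members, moved apart. Tns1 (chromosome 1, 73956806 to 74171122) was the only 1 of the 17 tested listed genes called higher than Control at MCE1. It had 27.5, 31.6 and 35.5 TPM in Control, 66.4, 62.9 and 60.8 at MCE1, 117, 117 and 113 at MCE2, and 161, 155 and 176 at Day4. The level was then 99.5, 148 and 108 TPM at Day6 and 86.9, 106 and 80.4 at Day8, so all 15 induced libraries lay above Control, with the peak at Day4. The log2 difference was 0.99 at MCE1 (SE 0.13, adjusted p = 9.11e-06), 2.35 at Day4 and 1.5 at Day8 (SE 0.13, adjusted p = 3.38e-08). Tns3 (chromosome 11, 8331655 to 8564538) had 75.8, 73.1 and 80.7 TPM in Control, 27.6, 27.1 and 27.1 at MCE1, 17.7, 18.7 and 17.8 at MCE2, 54.0, 48.2 and 52.9 at Day4, and 36.4, 36.3 and 32.1 at Day8. It was lower by -2.02 at MCE2 and by -1.11 at Day8 (SE 0.09, adjusted p = 9.84e-09), with a rise of 1.47 from MCE2 to Day4. Tns2, from the list of other plaque genes, had 35.1 ± 6.50 TPM in Control and rose to 60.7 ± 2.04 at MCE1 (0.79) and 69.4 ± 5.24 at Day8 (0.98), and Tns4 was at 0.0198 ± 0.0342 TPM in Control and 1.18 ± 0.764 at Day8. Both were named after their values were seen. The log2 ratio of Tns3 to Tns1 went from 1.26 ± 0.15 in Control to -2.62 ± 0.04 at MCE2 and -1.35 ± 0.15 at Day8.

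**Figure D4:**
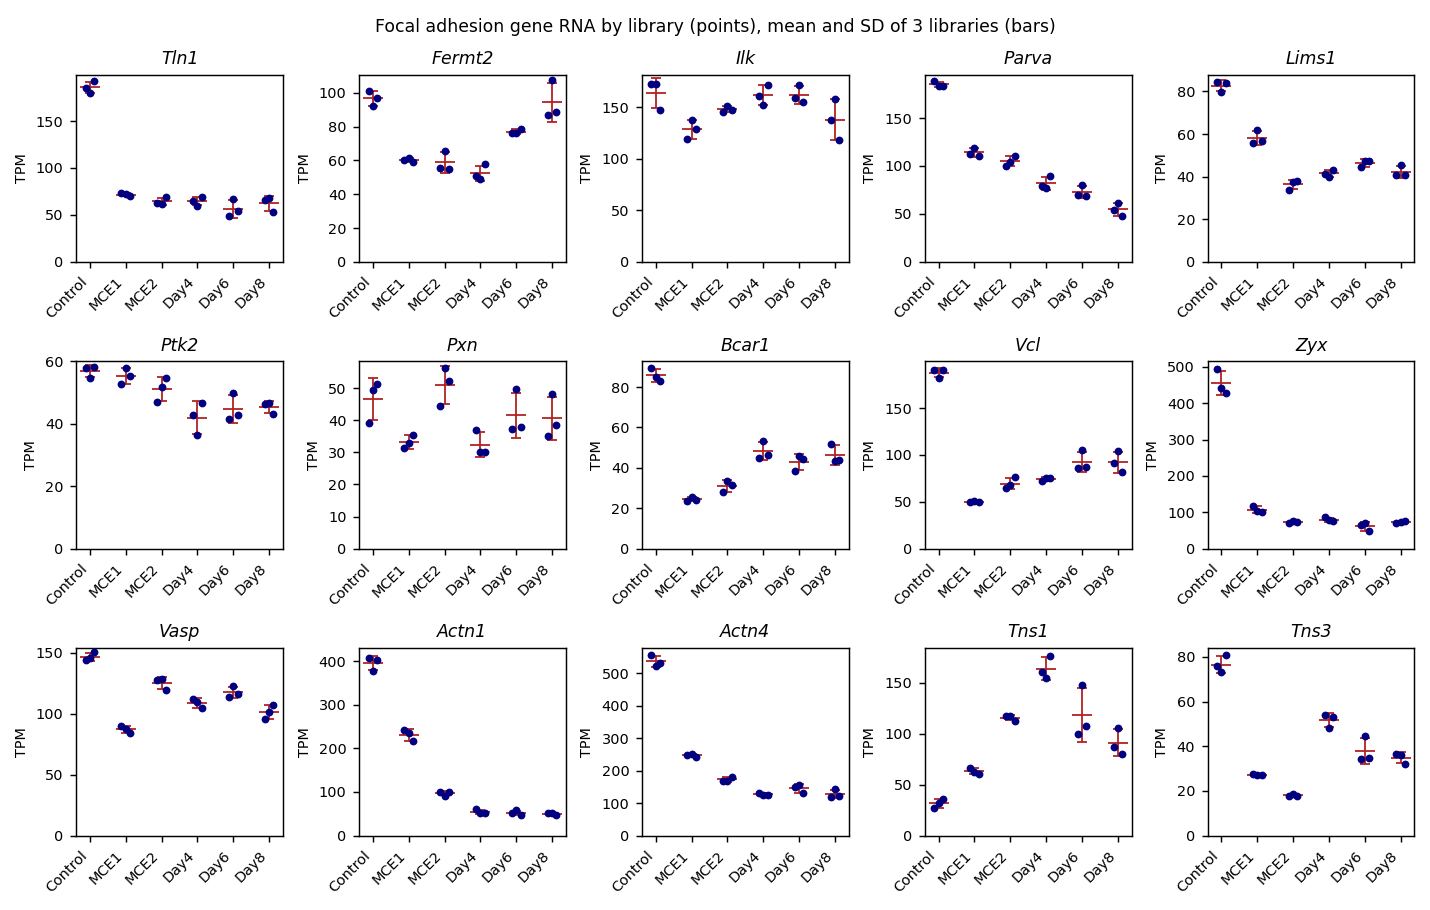
The panels give TPM on linear axes for 15 listed focal adhesion genes, with a point for each library and a bar for the mean and SD of the 3 libraries of a group. Zyx, Vcl, Tln1 and Bcar1 drop from Control to MCE1, Fermt2 returns to its Control range at Day8, and Tns1 climbs from 27.5 to 35.5 TPM in Control to 155 to 176 at Day4.

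Promoters were searched for 4 motifs on both strands, in RefSeq windows of 300 bases (build GRCm38.p6, up to 50 bases past the start). Windows were found for 31 of the 44 genes and for 22 of the 31 tested ones. The CArG box of SRF, a factor known to switch on genes of the actin skeleton, was found in Vcl and Fermt2 of these 22 and in 1.63% of all 32851 windows. Of the same genes, the AP-1 motif TGANTCA was found in Actn4, Itga3 and Zyx (7.81% of all windows) and the TEAD motif GGAATG in Actn4, Itgb1 and Vcl (14.7%). The C/EBP motif TTGCNNAA was found in Actn1 and Vasp (10.8%). Members are counted by gene, with 37 windows for 31 genes, and the background by window. Among untested members, Itgb6 had a CArG box, Itga10 a TEAD motif, and Itgax and Itga9 an AP-1 motif. The 250 bases before the start are given for the pair of tested genes with a CArG box and for Zyx, whose RNA fell most at MCE1 among the linkers. They run 5′ to 3′ on the gene's strand, with capitals for the CArG box (Vcl and Fermt2) or the AP-1 motif (Zyx). In Vcl the CArG box lies at bases -227 to -218 from the start and in Fermt2 at -204 to -195, and the AP-1 match of Zyx at -121 to -115. A match is a description of the letters and not evidence that a factor binds.
Vcl, chr14:20929148-20929397, plus strand: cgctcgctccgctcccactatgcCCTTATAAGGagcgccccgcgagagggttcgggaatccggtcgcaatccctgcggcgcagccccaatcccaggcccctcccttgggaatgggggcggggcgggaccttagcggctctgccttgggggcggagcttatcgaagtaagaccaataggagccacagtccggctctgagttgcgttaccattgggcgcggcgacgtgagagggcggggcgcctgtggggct
Fermt2, chr14:45530066-45530315, minus strand: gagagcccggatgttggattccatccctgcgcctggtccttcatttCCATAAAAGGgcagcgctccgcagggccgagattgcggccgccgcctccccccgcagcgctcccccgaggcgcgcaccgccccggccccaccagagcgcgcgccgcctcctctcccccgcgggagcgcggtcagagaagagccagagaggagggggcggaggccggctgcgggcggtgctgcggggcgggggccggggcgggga
Zyx, chr6:42349578-42349827, plus strand: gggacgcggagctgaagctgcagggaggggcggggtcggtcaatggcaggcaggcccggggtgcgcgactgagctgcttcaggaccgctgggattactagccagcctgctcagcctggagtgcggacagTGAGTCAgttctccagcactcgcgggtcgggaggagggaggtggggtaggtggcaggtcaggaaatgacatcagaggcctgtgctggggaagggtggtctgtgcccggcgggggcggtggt

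Other genes of the plaque were taken from a list of 62, of which 55 were tested. At MCE1 33 of the 55 were lower than Control, 10 higher and 12 not called, where 29.4% of all tested genes were lower and 22.0% higher (median -0.35, beside -0.06). At Day8 33 were lower, 14 higher and 8 not called, beside 39.7% and 31.7% of all tested genes (median -0.72, beside -0.11). Among called genes of the list with at least 10 TPM in the higher group, the lowest log2 differences at Day8 were those of Flna, for the actin crosslinker filamin A (945 ± 27.9 to 113 ± 12.1 TPM, log2 difference -3.06), Pdlim1 (-2.86), Ajuba (-2.82) and Tgfb1i1, for the paxillin relative Hic-5 (-2.77). Among those that rose were Kank1 (2.37 ± 0.0984 to 22.8 ± 1.71 TPM, log2 difference 2.82), Dlc1 (1.74) and Ptk2b, for the FAK relative PYK2 (13.4 ± 1.22 to 39.9 ± 1.86 TPM, 1.51).

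The ligands that integrins bind were taken from a list of 47, with 40 tested. At MCE1 13 were higher than Control, 19 lower and 8 not called, beside 22.0% and 29.4% of all tested genes (median -0.29, beside -0.06). At Day8 21 were higher, 16 lower and 3 not called (median 0.37, beside -0.11), where 31.7% of all tested genes were higher and 39.7% lower, so the share of ligand genes that were lower was near the background. Fibronectin, the ligand of alpha5, was in the lower part: Fn1 had 521 ± 48.5 TPM in Control and 219 ± 63.3 at Day8 (-1.28, SE 0.16, adjusted p = 2.38e-06). Fn1 was named after its values were seen. Among called ligand genes with at least 10 TPM in the higher group, the lowest log2 differences at Day8 were those of Ccn1 (163 ± 6.83 to 9.33 ± 2.49 TPM, -4.02), Tnc (25.2 ± 10.3 to 2.02 ± 3.11 TPM, -3.55), Thbs1 (-2.11) and Fbln5 (-1.81), all genes of matrix proteins. Ccn2, under that level with 8.17 ± 0.810 TPM in Control, was listed at 0 in the Day8 libraries. The highest were Lamb3, a laminin chain (0.889 ± 0.0274 to 21.8 ± 0.932 TPM, 3.59), Nid2, which links laminin to collagen IV (3.44), Col3a1 (3.40) and Col6a3 (2.52). Lamb3 was under 1 TPM in Control and MCE1 and passed the filter only through later groups, where it was high. No test is therefore read from its difference.

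The steps between neighbouring groups show where the changes lay. From MCE1 to MCE2 9 of the 31 rose, 11 fell and 11 were not called (42.8% of all tested genes were called, 17.7% higher and 25.2% lower), with Itga7 up by 1.29 and Itgb7, Actn1 and Itga5 down by -1.49, -1.24 and -1.0. From MCE2 to Day4 13 rose, 10 fell and 8 were not called (background 51.6%, 29.6% higher and 22.0% lower), with Itgbl1 (5.16), Tns3 (1.47), Itga7 (1.44) and Itgb5 (1.20) up and Itgb3 (-1.07) and Itga5 (-0.93) down. From Day4 to Day6 8 rose and 4 fell (background 25.7%, 14.5% higher and 11.2% lower). Up were Itga11 (1.14, from 0.240 ± 0.134 to 1.73 ± 0.203 TPM), Itga7 (0.93) and Itga6 (0.90), and Itgbl1 (-0.80) was down. From Day6 to Day8 5 rose (Itga7, Itga1, Itgb5, Itgav and Fermt2, by 0.29 to 0.87) and 2 fell (Parva by 0.41 and Vasp by 0.21), beside a background of 21.7% (10.1% higher and 11.6% lower). Differences of at least 1 in size were called for 4, 8, 1 and 0 of the 31 at the 4 steps, beside 7.64%, 10.9%, 2.90% and 1.61% of all tested genes. The Day6 to Day8 call of Fermt2 ended without Day6 replicate 1 (0.28), Day6 replicate 2 (0.28) or Day8 replicate 2 (0.19). That of Itga1 ended without Day6 replicate 2 (0.39) or Day8 replicate 2 (0.38), and with a pseudocount of 0.1 (0.65). Itga1, Itga7, Itga11, Itgae, Itgb2 and Itgb7 count among the calls of these steps. Itgb7 passed the filter only through Control, MCE1 and MCE2, and the others only with later groups, each where it was high. No test is therefore read from their steps.

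Replicate 2 of Day6 was the highest of its group in 24 of the 31 tested genes (77.4%, beside 50.1% of all tested genes), and replicate 2 of Day8 in 19 (61.3%, beside 44.5%). Whether a library property sets this was not tested. Without Day6 replicate 2, 28 of the 31 were called at Day6 against Control, and 27 with it. The Day4 to Day6 rise of Vcl (0.31) ended without Day6 replicate 2 (0.21) or Day4 replicate 1 (0.28).

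The 13 genes that did not reach 1 TPM in 3 libraries were 12 integrins and Lims2. Itga4 and Itgam were listed at 0 in all 18 libraries, and Itgax and Itgb6 in 17. Itga2, Itga9, Itgad, Itgal and Itgb8 stayed below 0.670 TPM or at it, Itga10 and Itgb4 below 1 TPM in every library with highest values of 0.877 and 0.990, and Itga8 reached 1.09 TPM in Day8 replicate 2 only. Just inside the filter lay Itga11, whose 3rd highest library had 1.81 TPM, and just outside it Itga10, with 0.796. So the collagen receptor chain alpha2, the leukocyte chains alpha4, alphaL, alphaM and alphaX, and the epithelial chain beta6 were at or near 0 in these libraries. Itgb4, for the epithelial chain beta4, was above 0 in all 18, with 0.990, 0.611 and 0.795 TPM in Control and 0.276, 0.254 and 0.101 at Day8, and was not tested.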

How the data were processed

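Polyadenylated RNA of 18 libraries, 3 in each of 6 groups, was measured as TPM per gene, and groups and replicate numbers were taken from the sample titles. Per the submitters' processing notes, the deposited TPM values come from a workflow that names FastQC, cutadapt, HISAT2, StringTie and the mm9 build; versions, annotation and any filter are not given in the sources used here. Summed over its genes, TPM per library ran from 869497 to 880273. Each table held the same 25209 gene names; 12 listed at another locus in Control replicate 1, none of them a member, were left out of the tests. The recorded position differed between libraries for 879 names, of which Itgb6 and Itgax are members.

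The 12695 genes that reached 1 TPM in 3 or more libraries entered a limma fit (version 3.58.1, under R 4.3.3) of log2(TPM + 1) in which all 18 libraries gave 6 group means with trended, robust moderated variances (12 residual and a median of 3.18 prior degrees of freedom). The 9 comparisons (each later group against Control, each step between neighbours) used 2-sided moderated tests with Benjamini-Hochberg adjustment over all tested genes, called at an adjusted p under 0.05. The fit was tested on simulated data. Any member could be named; from the lists of 62 plaque and 47 ligand genes, up to 4 called genes with the largest change at Day8 in each direction provided the higher group averaged 10 TPM or more. A gene that this rule would name is not reported here. Members, lists, ratios and motifs were chosen with earlier results of these data known. No proteins were compared. Motifs were searched and sums, shares and exact permutation tests computed with Python 3.11.15, pandas 2.3.3, numpy 2.4.6 and scipy 1.17.1, and figures drawn with matplotlib 3.10.9. The alternatives were another pseudocount, other filters, 2 scalings, the 6 libraries alone, the replicate number as a block, a minimum log2 change and leaving out each library.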

Additional observations from a re-analysis of the deposited data

How the results depend on the processing

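Of the 31 tested genes, none changed from called in 1 direction to called in the other under any alternative. Requiring a log2 difference of at least 1 in size left 11 of 25 calls at MCE1, 16 of 26 at Day4 and 18 of 28 at Day8 against Control (17 of 25 at MCE2 and 18 of 27 at Day6), and 4, 8, 1 and 0 calls at the steps to MCE2, Day4, Day6 and Day8, where limma had called 20, 23, 12 and 7. At the step to Day8 the largest difference was 0.87, so 0 genes also remained at an unadjusted p under 0.05. It left 24 of 47 plaque genes and 24 of 37 ligand genes at Day8. At that last step median-ratio scaling called 11 and the fit on the 6 libraries alone called 2. Leaving out 1 library gave 23 to 25 calls at MCE1, 26 to 29 at Day8 and 7 to 8 at the step to Day8. With the replicate number as a block, 26 genes were called at MCE1 and 28 at Day8, so it moved no count by over 1.5 times; it ended the call of Itga3 from MCE2 to Day4 (-0.28) and called Itgb7 lower at MCE1 (-0.41). Same-numbered libraries of compared groups did not deviate together (r -0.07 to 0.09 over genes). This cannot tell whether they shared a culture or a run, so whether the numbers pair the samples is not known. A pseudocount of 0.1 called 26 genes at MCE1 and 28 at Day8, a filter of 5 TPM kept 27 genes, and no filter tested more genes and called 31 at Day8. Depth is unknown, so how much of the scatter is counting error is not known, which bears most on the chains near 1 TPM.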
